A study of Mus musculus with 99 samples.

Results

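This section follows 56 genes of antioxidant defence and glutathione metabolism through outer hair cells of the mouse cochlea that were made to express the transcription factor Tbx2. The genes were taken by name from the 55291 symbols of a count table: the glutathione peroxidases (Gpx), peroxiredoxins (Prdx), glutathione transferases (Gsta, Gstm, Gstp, Gstt, Gsto, Gstz, Mgst), thioredoxins (Txn) and superoxide dismutases (Sod), together with Txnrd1, Txnrd2, Cat, Gclc, Gclm, Gss, Gsr, Nqo1, Hmox1, Nfe2l2, Keap1 and Srxn1. A further 8 matching symbols that name pseudogenes were left out. The rule itself reads names and no expression value. The first group was 32 wild-type outer hair cells (OHCs) at postnatal day 30 from Slc26a5-CreER/+; Ai9/+ mice, and the second 67 converted inner hair cells (cIHCs) at postnatal day 42 from Slc26a5-CreER/+; Rosa26Tbx2/+ mice. All mice were C57BL/6 and carried CreER at Slc26a5, the OHC gene for prestin, so both groups derive from OHCs; each cell was fluorescent for tdTomato and picked singly by hand. The age at which Cre was induced is not given in the sources used here, and age, reporter and Tbx2 allele differed together between the groups. The dissociation solution held ascorbate, thiourea and N-acetyl-L-cysteine, which are themselves antioxidants, in both groups alike.

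Hair cells consume much energy and produce reactive oxygen, and OHCs are known as the hair cells most easily lost to noise, ageing and ototoxic drugs. Superoxide dismutases turn superoxide into hydrogen peroxide, which catalase, glutathione peroxidases and peroxiredoxins then remove. Glutathione and thioredoxin supply the electrons, and the transcription factor NRF2 (Nfe2l2), held in check by KEAP1, drives many of these genes through the antioxidant response element.

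Levels are given as CPM, counts per 1000000 of a cell's or a group's total. Totals ran from 5656512 to 9287413 counts in OHCs and from 4677682 to 13792672 in cIHCs, and a median of 6068.5 and 8546 genes had reads. Because the labels name no animal, each group counted as 1 sample, the pooled level is the group's summed counts over its summed total, and no difference has a replicate check or a test. Ratios are log2 of cIHC over OHC pooled CPM with 95% intervals that cover counting error only, since amplified reads are not independent molecules; the spread between animals is not known. Tbx2 had 3 counts in the OHCs and 730.7 CPM in the cIHCs, with reads in all 67. The summed level of 9 OHC markers was 55563 CPM for OHCs against 1031 CPM for cIHCs, and that of 10 IHC markers 2560 against 12802 CPM, so both labels matched their markers. Markers of other cells were low in the pooled groups. The summed supporting cell list stood at 59.3 CPM (OHCs) against 27.1 CPM (cIHCs), the glia list at 14.3 against 8.19 CPM, and the red blood cell list at 4.503 against 5.73 CPM. Each list had a median of 0 over cells in both groups. Single cells were higher, up to 1662 CPM (OHC) and 1013 CPM (cIHC) for the supporting cell list. A filter on reads of supporting cells, glia or red blood cells, used below, kept 21 OHCs and 41 cIHCs. The 6 fibroblast genes summed to 202.1 and 145.5 CPM, of which Pdgfra made up 147.7 and 123.8 CPM. The 8 macrophage genes summed to 1.57 and 49.98 CPM, of which C1qb made up 48.2 CPM in cIHCs, where C1qa, C1qc, Tyrobp, Lyz2 and Ctss had no read.

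The core letters of the antioxidant response element, TGACNNNGC or its reverse GCNNNGTCA, were looked for in the 250 bases before each RefSeq start (GRCm38.p6), because this is the sequence through which NRF2 is known to act on the family. Promoters of 48 members were on hand, and 9 of them, 18.8%, held the letters, as did 11.5% of all 27025 genes. Of the 29 with at least 10 CPM, 7 held them, 24.1%, beside 14.2% of 7839 genes at that level. These 7 stretches are shown 5′ to 3′ on the strand of the gene, with the matching letters in capitals. A match is a description of these bases and not a site of binding.
Prdx1, chr4:116685456-116685484: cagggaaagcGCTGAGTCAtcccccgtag
Gclm, chr3:122245413-122245441: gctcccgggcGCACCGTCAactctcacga
Nfe2l2, chr2:75704885-75704913: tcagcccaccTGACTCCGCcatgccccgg
Txnrd1, chr10:82859104-82859132: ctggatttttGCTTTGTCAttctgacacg
Sod1, chr16:90220696-90220724: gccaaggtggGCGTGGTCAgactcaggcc
Gstm5, chr3:107895802-107895830: caccgcccacTGACCACGCggagggcggg
Gstm7, chr3:107931725-107931753: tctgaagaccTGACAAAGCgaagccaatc
Prdx1 and Gclm were at least 2-fold higher in cIHCs, Txnrd1 was just past 2-fold lower, and the others of the 7 lay within 2-fold. Over all 10041 genes with at least 10 CPM, 26.3% were at least 2-fold higher and 14.3% lower. The counts among the 7 were near these shares and say nothing particular about genes with the letters.

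Of the 56 members, 33 reached 10 CPM in 1 or both groups, 23 did not, and 6 of those had no read in any cell. Among the 33, 8 were at least 2-fold higher in cIHCs (Cat, Gpx3, Gstz1, Txnrd2, Gclm, Prdx1, Prdx6 and Gsta4) and 6 at least 2-fold lower (Gstm6, Gstm1, Prdx5, Gpx2, Srxn1 and Txnrd1), while 19 lay within 2-fold. These are 24.2% and 18.2% of the members; over all 10041 genes at that level the same fold was passed upward by 26.3% and downward by 14.3%. The median log2 ratio of the members was 0.24, and that of all genes 0.25. Both shares were near those of all genes, so the counts say nothing particular about the family, and no member's cells separated the groups completely, as those of 0.0797% of all genes did upward and 0.0896% downward. Summed over all 56 genes, OHCs reached a pooled 9803 CPM and cIHCs 6740 CPM, which is a log2 ratio of -0.54. Gpx2 and Prdx5 together were lower by more than this gap.

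**Figure D1:**
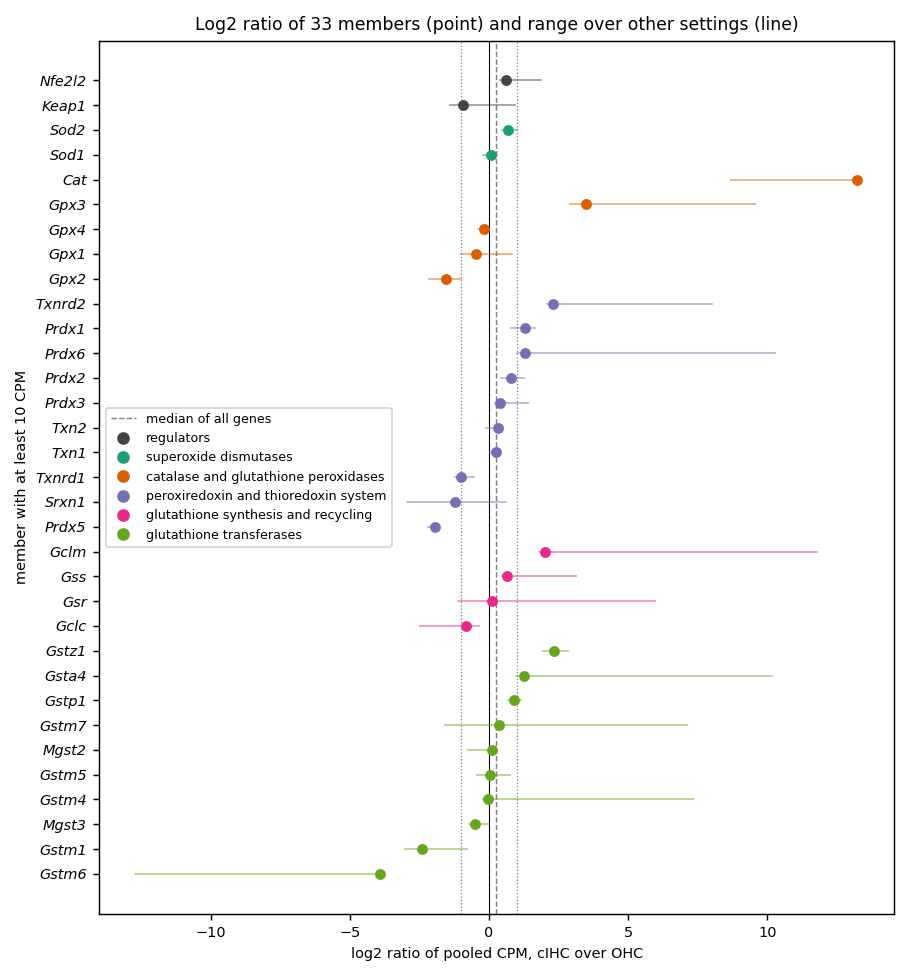
Log2 ratio of pooled CPM (x axis, cIHC over OHC) for the 33 members with at least 10 CPM (y axis), coloured by role. Points are the reported ratios, lines run from the lowest to the highest value under the other settings (some are set by groups with few or no reads), the dashed line is the median of all genes and dotted lines mark 2-fold; points run from -3.92 for Gstm6 to 13.23 for Cat.

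Nfe2l2, which encodes NRF2, was somewhat higher in cIHCs, short of 2-fold. Its level per OHC ran from 0 to 571.6 CPM with a median of 43.02 CPM, and per cIHC from 0 to 590.8 CPM with a median of 155.8 CPM. The ranges overlapped almost fully, and the pooled levels of 109.7 and 167.3 CPM gave a log2 ratio of 0.61 (0.59 to 0.63). Keap1, whose product marks NRF2 for degradation, ran from 0 to 174.1 CPM with a median of 0.148 CPM in OHCs and from 0 to 152.5 CPM with a median of 0.284 CPM in cIHCs. Most cells of either group had little or no Keap1, and its ratio of -0.93 (-0.97 to -0.88) came from pooled levels of 33.03 and 17.4 CPM and had the opposite sign, at 0.94, both with medians over cells and among cells with Xist reads. Of the enzymes that serve as classic readouts of NRF2, Nqo1 (a quinone reductase) had 1.55 and 1.05 CPM, and Hmox1 (haem oxygenase) had 1.25 and 7.53 CPM. Reads of Hmox1 came from 1 OHC and 14 cIHCs, and neither enzyme reached 10 CPM in either group.

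The superoxide dismutases were close to even. Sod1, the cytosolic enzyme, had reads in every cell, with 2.36 to 570.6 CPM and a median of 154.7 CPM in OHCs and with 31.01 to 474.7 CPM and a median of 188.7 CPM in cIHCs. Its log2 ratio was 0.06 (0.04 to 0.07) and changed sign under 5 of 11 other settings, TMM and median-of-ratios scaling among them. Sod2, the mitochondrial enzyme, ran from 0 to 258.6 CPM with a median of 93.3 CPM in OHCs and from 0.275 to 360.1 CPM with a median of 145.5 CPM in cIHCs. The cIHC cells were shifted upward within an overlapping range, and the ratio was 0.68 (0.66 to 0.70). Sod3, the secreted enzyme, had 1 count in OHCs and none in cIHCs.

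Among catalase and the glutathione peroxidases, Cat and Gpx3 were higher in cIHCs and Gpx2 was lower. Gpx2 (chr12:76792333-76795554, minus strand), a cytosolic glutathione peroxidase best known from gut epithelium, was the most abundant of the 33 members per kilobase of annotated exon in both groups, at 1513 CPM per kilobase in OHCs and 517.7 in cIHCs. Its level per OHC ran from 1734 to 8194 CPM with a median of 4682 CPM. In cIHCs it ran from 0 to 6529 CPM with a median of 1061 CPM. OHCs were uniformly high, whereas cIHCs spread from none to OHC levels: 13 cIHCs were below 10 CPM, 12 from 10 to 100 CPM, 8 from 100 to 1000 CPM and 34 above, and 37 of 67 lay below the lowest OHC. The pooled levels of 4876 and 1668 CPM gave a log2 ratio of -1.55 (-1.55 to -1.54), which became -2.14 with medians over cells.

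**Figure D2:**
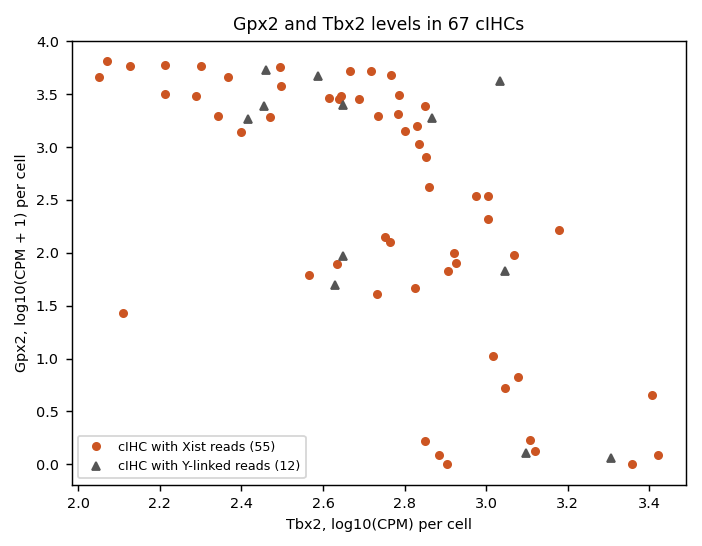
Gpx2 level (y axis, log10(CPM + 1)) against Tbx2 level (x axis, log10 CPM) in the 67 cIHCs; circles are the 55 cells with Xist reads and triangles the 12 with Y-linked reads. Gpx2 ranges from 0 to 6529 CPM, and most cells with the highest Tbx2 levels have little or no Gpx2.

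The spread of Gpx2 over cIHCs ran against the level of Tbx2: cells with more Tbx2 tended to have less Gpx2. Tbx2 itself ranged from 112.7 to 2643 CPM over these cells, and the Spearman correlation of the 2 levels was -0.69 over 67 cells. It was -0.72 over the 55 cIHCs with Xist reads and -0.57 over the 12 with Y-linked reads. Over all cIHCs, 10000 genes gave correlations with Tbx2 whose 5th and 95th percentiles were -0.27 and 0.31; 2 of them, Gpx2 included, were at or below the value of Gpx2, and the 33 members had a median of 0.04 and a highest value of 0.34, for Prdx6. Gpx2 ran with the summed IHC markers, at 0.65 over all cIHCs, and with Ocm, the OHC gene for oncomodulin, at 0.44. It did not run with the summed OHC markers, at 0.05. Cells with more Gpx2 had fewer genes with reads (-0.53) and lower totals (-0.41). Gpx2 also differed along the cell numbers. Each of cIHC-13 to cIHC-19 had at least 1375 CPM, and none of cIHC-43 to cIHC-49 had more than 45.2 CPM. The labels do not say what the numbers follow. Each cell's values share 1 library and 1 total, and the pair was singled out after its values were seen. The parts of depth and of any block of cells in the relation were not tested.

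Cat (chr2:103453849-103485160, minus strand), which encodes the peroxisomal enzyme catalase, was all but absent from OHCs. A single read in 1 of 32 OHCs was its whole count there, and no OHC exceeded 0.119 CPM. In cIHCs it ran from 0 to 241.5 CPM with a median of 0 CPM: 33 of 67 cells had reads (49.3%, exact Clopper-Pearson 95% interval 36.8 to 61.8) and 28 reached 10 CPM. The pooled level in cIHCs was 39.6 CPM, and the log2 ratio of 13.23 (10.75 to 18.53) rests on that single OHC read. Cat was the only one of the 33 members with at most 3 counts in OHCs and at least 10 CPM in cIHCs, a pattern found in 3.32% of the 10041 genes. Red blood cells are rich in catalase. Of the 33 cIHCs with Cat reads, 26 had no read of the 5 red blood cell genes, and Cat stood at 39.1 CPM in the 53 cIHCs without such reads. Among the 31 cIHCs without reads of the macrophage list, which were mostly of C1qb, Cat stood at 44.3 CPM. Among the 41 without supporting cell reads it stood at 30.4 CPM. All 67 cIHCs had reads of the fibroblast list, so no such value could be had for it, and the part of any of these cell types in the Cat and Gpx3 values was not tested.

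Gpx3, the secreted glutathione peroxidase, was likewise found mainly in cIHCs. Levels per OHC ran from 0 to 96.6 CPM with a median of 0 CPM, in 3 cells with reads, and levels per cIHC from 0 to 1463 CPM with a median of 17.4 CPM, in 43 cells with reads. One cIHC held 27.9% of the counts, and the pooled levels of 6.88 and 77.1 CPM gave a ratio of 3.49 (3.42 to 3.56). The ratio was 2.90 among cells with Y-linked reads and 9.56 among cells with Xist reads, where only 4 OHCs remained, with few or no Gpx3 reads. In the 31 cIHCs without reads of the macrophage list Gpx3 stood at 35.7 CPM and in the 41 without supporting cell reads at 54.6 CPM. The macrophage list reads were mostly of C1qb, so the first value mainly sorts cells by that gene.

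The 2 widely expressed peroxidases differed little. Gpx1, the ubiquitous cytosolic form, ran from 0 to 628.6 CPM with a median of 139.4 CPM in OHCs and from 0 to 429.3 CPM with a median of 144.3 CPM in cIHCs. Its ratio of -0.48 (-0.49 to -0.46) had the opposite sign with medians over cells and among cells with Xist reads, where it was 0.83. Gpx4, which removes lipid peroxides and guards against ferroptosis, was present in every cell, from 193.8 to 1403 CPM with a median of 735.9 CPM in OHCs and from 327.9 to 1206 CPM with a median of 666.8 CPM in cIHCs. The groups overlapped throughout, and the ratio was -0.18 (-0.19 to -0.18). Gpx7 and Gpx8, enzymes of the endoplasmic reticulum, were below 10 CPM in both groups, and Gpx5 and Gpx6 had no read.

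**Figure D3:**
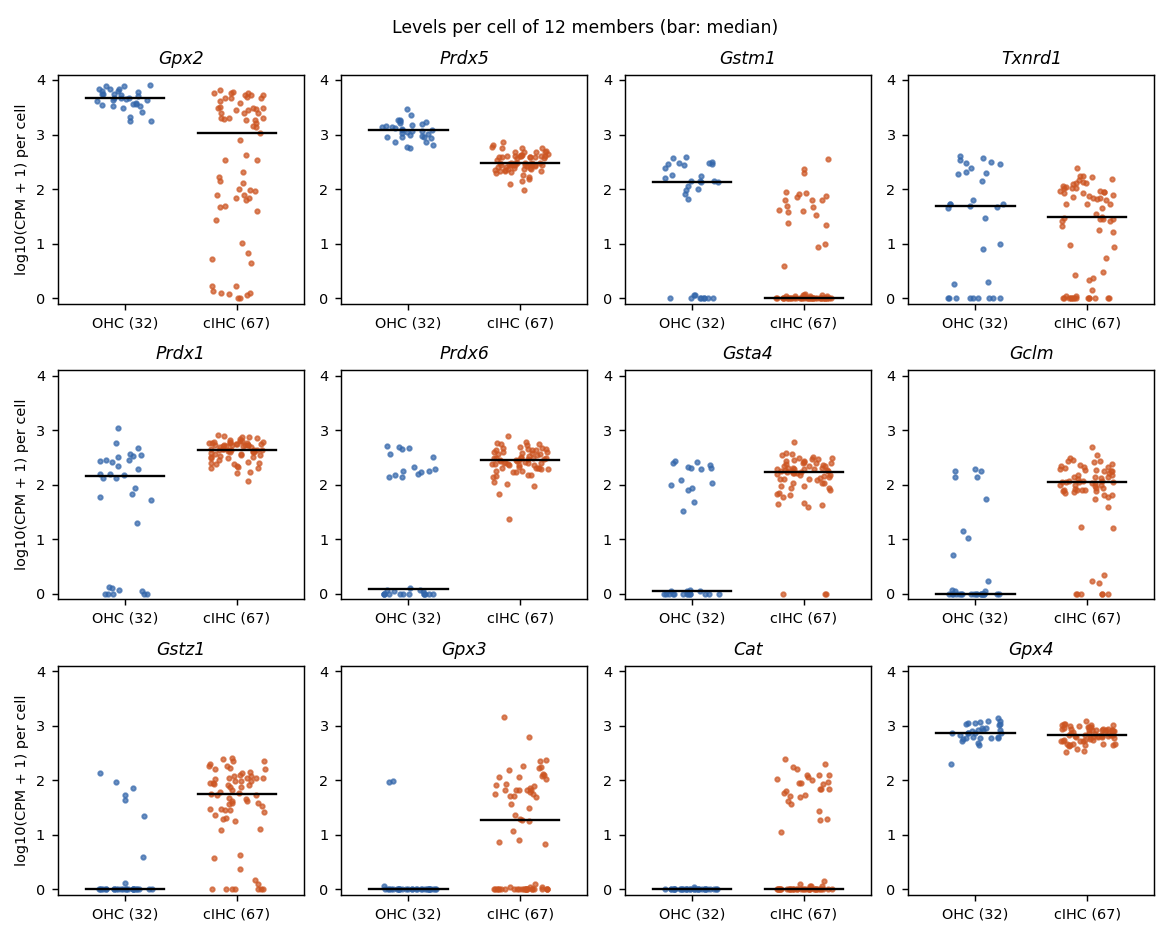
Level per cell (y axis, log10(CPM + 1)) of 12 members in 32 OHCs (blue) and 67 cIHCs (orange); each point is 1 cell and bars are medians. Prdx5 separates the groups most cleanly, Gpx2 spreads over the cIHCs, Cat and Gpx3 appear in part of the cIHCs, and Gpx4 is alike in both.

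The peroxiredoxins, thiol enzymes that reduce peroxides with electrons from thioredoxin, differed in direction from one another. Prdx5 (chr19:6906697-6910106, minus strand), found in mitochondria, peroxisomes and cytosol, ran from 564.3 to 2904 CPM with a median of 1188 CPM in OHCs and from 95.3 to 717.5 CPM with a median of 296.5 CPM in cIHCs. It separated the groups more cleanly than any other member: 63 of 67 cIHCs lay below the lowest OHC, and a cIHC was the higher in 0.326% of pairs of 1 cIHC and 1 OHC. The pooled levels of 1267 and 330.8 CPM gave a ratio of -1.94 (-1.95 to -1.93), which stayed between -2.19 and -1.90 under all 11 other settings. Prdx5 shares 19.1% of its annotated exon bases with Trmt112 on the other strand, and the strand setting of the counting is not given in the sources used here, so its counts are uncertain to that extent; Trmt112 had 163.4 and 141.5 CPM.

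Prdx1, the abundant cytosolic form, ran from 0 to 1101 CPM with a median of 140.5 CPM in OHCs and from 113.8 to 811.5 CPM with a median of 437.8 CPM in cIHCs. Every cIHC but only 27 OHCs had reads, and the pooled levels of 185.1 and 454.4 CPM gave a ratio of 1.296 (1.281 to 1.310), or 0.79 among cells with Xist reads. Prdx6, which acts with glutathione and reduces phospholipid peroxides, ran from 0 to 517.3 CPM with a median of 0.221 CPM in OHCs and from 22.6 to 768.8 CPM with a median of 276.7 CPM in cIHCs. OHCs fell into cells with and without reads (20 of 32 had any), all 67 cIHCs had reads, and the pooled levels of 124.1 and 302.6 CPM gave a ratio of 1.285 (1.268 to 1.303). Prdx2 ran from 0 to 1414 CPM with a median of 276.8 CPM in OHCs and from 114.5 to 1272 CPM with a median of 586.6 CPM in cIHCs, a ratio of 0.79 (0.78 to 0.80). Prdx2 overlaps Junb and Rnaseh2a on the other strand over 5.67% and 5.80% of its exon bases, and both partners were higher in cIHCs, Junb at 483.5 against 80.1 CPM; their part in the value was not tested. Prdx3, the mitochondrial form, had medians of 53.1 CPM in OHCs, with a range of 0 to 392.2 CPM, and 95.9 CPM in cIHCs, with a range of 0 to 412.9 CPM, and a ratio of 0.41 (0.39 to 0.44). Prdx4, of the endoplasmic reticulum, was below 10 CPM in both groups, and Prdx6b had no read.

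In the thioredoxin arm, the carriers were level and the reductases were not. Txn1, cytosolic thioredoxin, ran from 0 to 954.4 CPM with a median of 377.9 CPM in OHCs and from 93.8 to 1207 CPM with a median of 428.1 CPM in cIHCs, a ratio of 0.24 (0.23 to 0.25) that equals the median of the members. Txn2, its mitochondrial counterpart, had a ratio of 0.33, or -0.11 among cells with Y-linked reads. Txnrd1, the cytosolic reductase that recharges thioredoxin, ran from 0 to 398.9 CPM with a median of 47.1 CPM in OHCs and from 0 to 241.9 CPM with a median of 29.7 CPM in cIHCs. Its ratio of -1.01 (-1.04 to -0.99) sat at the 2-fold line and fell short of it under 6 of 11 other settings, lying there between -0.98 and -0.54, with the same sign in all. Txnrd2, the mitochondrial reductase, stood at 5.48 CPM with reads in 4 OHCs and at 26.8 CPM with reads in 28 cIHCs, a ratio of 2.29 (2.21 to 2.37). Srxn1, which repairs over-oxidised peroxiredoxins, had 26.8 CPM in 10 OHCs with reads and 11.6 CPM in 19 cIHCs with reads; its ratio of -1.21 turned to 0.60 among cells with Y-linked reads.

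Of the 4 genes that make and recycle glutathione, the 2 subunits of the rate-limiting ligase had pooled ratios of opposite sign. Gclm, the modifier subunit, ran from 0 to 196.6 CPM with a median of 0 CPM in OHCs and from 0 to 482.9 CPM with a median of 108.5 CPM in cIHCs. Reads were present in 13 of 32 OHCs and 61 of 67 cIHCs, and 13 cIHCs were above the highest OHC. The pooled levels of 31.3 and 126.6 CPM gave a ratio of 2.02 (1.98 to 2.05). Among cells with Xist reads, where only 4 OHCs with few or no Gclm reads remained, the ratio was 11.77. Gclc, the catalytic subunit, ran from 0 to 281.5 CPM with a median of 0 CPM in OHCs and from 0 to 151.7 CPM with a median of 0.138 CPM in cIHCs, a ratio of -0.84 (-0.87 to -0.80). The Gclc ratio had the lower sign under all settings with a value, from -2.49 to -0.35. Cell by cell the groups were even: a cIHC was the higher in 50.3% of pairs of 1 cIHC and 1 OHC. Gclc reads were present in 15 of 32 OHCs and 37 of 67 cIHCs. Gss, glutathione synthetase, ran from 0 to 159.4 CPM with a median of 4.39 CPM in OHCs and from 0 to 243.3 CPM with a median of 38.3 CPM in cIHCs, a ratio of 0.65 (0.62 to 0.69). Gss shares 6.68% of its exon bases with Acss2 on the other strand, which had 198.9 and 508.1 CPM. Gsr, glutathione reductase, ran from 0 to 314.2 CPM with a median of 0.821 CPM in OHCs and from 0 to 303.5 CPM with a median of 50.8 CPM in cIHCs. More cIHCs had reads, but the ratio of 0.11 (0.08 to 0.14) changed sign under 5 of 11 other settings.

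The glutathione transferases, which couple glutathione to reactive compounds, gave 10 of 24 members at 10 CPM or more, 2 of them at least 2-fold higher in cIHCs and 2 at least 2-fold lower, which is 20.0% each beside 26.3% and 14.3% of all genes. Gsta4, which clears the lipid peroxidation product 4-hydroxynonenal, ran from 0 to 264.8 CPM with a median of 0.146 CPM in OHCs and from 0 to 598.7 CPM with a median of 169.8 CPM in cIHCs. It had reads in 19 of 32 OHCs and 64 of 67 cIHCs, and pooled levels of 72.9 and 175.9 CPM, a ratio of 1.27 (1.25 to 1.29). Without the cells that held reads of other cell types the ratio was 0.98. Gstz1, of tyrosine breakdown, ran from 0 to 135.9 CPM with a median of 0 CPM in OHCs and from 0 to 259.3 CPM with a median of 55.3 CPM in cIHCs. Only 8 OHCs but 60 cIHCs had reads, and the pooled levels of 14.1 and 72.0 CPM gave a ratio of 2.35 (2.30 to 2.40), from 1.93 to 2.84 under the other settings. Gstz1 overlaps Pomt2 and Gm6566 on the other strand, over 9.14% and 3.07% of its exon bases.

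The Gstm genes lie side by side on chromosome 3 (GRCm38, Gstm5 starting at 107895821 and Gstm4 ending at 108044894) and did not move as a block. Gstm1 ran from 0 to 378.8 CPM with a median of 134.2 CPM in OHCs and from 0 to 348.5 CPM with a median of 0 CPM in cIHCs. Reads were present in 24 of 32 OHCs and 30 of 67 cIHCs, the opposite of the general trend in detection, and the pooled levels of 137.4 and 25.9 CPM gave a ratio of -2.41 (-2.44 to -2.38), or -0.80 among cells with Xist reads. Gstm6 stood at 17.8 CPM from 5 OHCs and at 1.18 CPM from 2 cIHCs, with 99.8% of its cIHC reads in a single cell, and had a ratio of -3.92. Gstm5, Gstm4 and Gstm7 had ratios of 0.05, -0.02 and 0.34, each of which changed sign under 3 or more other settings. Gstp1, the Pi class enzyme, had medians of 92.4 and 204.8 CPM and a ratio of 0.91, below 2-fold. Mgst3 and Mgst2, the membrane-bound forms, had ratios of -0.51 and 0.10, the second changing sign under 5 other settings. Gstm and Gstp genes have close copies between which the counting could split reads, so their single values are uncertain. Gstp2 had 0.818 and 1.23 CPM, and Gsta1 and Gsta2 no read. Within the cIHCs, Gstp2 reads broke by cell number. Every cell from cIHC-21 to cIHC-67 had them, and among cIHC-1 to cIHC-20 only cIHC-7 did. The labels do not say what the numbers follow, and the cause was not tested.

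**Figure D4:**
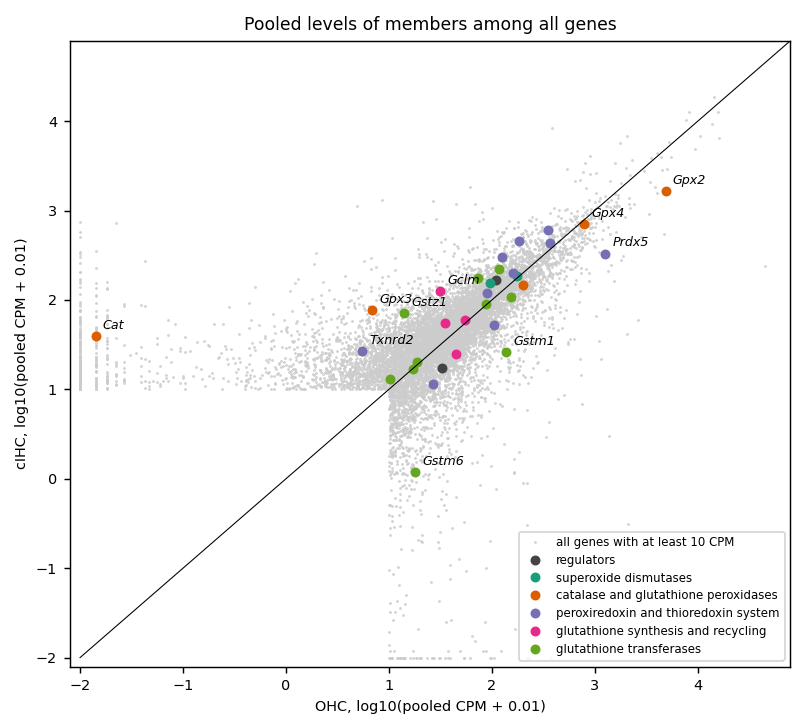
Pooled level in cIHCs (y axis) against OHCs (x axis), both log10(CPM + 0.01), for the 33 members with at least 10 CPM (coloured by role) and all 10041 genes at that level (grey); the line marks equality. Gpx2 is the highest member in both groups, Prdx5 and Gstm1 lie below the line, and Cat stands far to the left.

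Detection has to be read against a general difference. For 1303 genes with mean levels of 10 to 100 CPM and a log2 ratio within 0.25, the average share of cells with reads was 49.97% for OHCs and 71.0% for cIHCs, and for 400 genes from 100 to 300 CPM it was 88.6% and 98.0%. After thinning every cell to the same 5880000 reads, Prdx6 was present in 55.2% of OHCs and 100% of cIHCs, Gclm in 34.5% and 92.3%, Gsta4 in 51.7% and 95.4%, Cat in 0% and 49.2%, and Gstm1 in 79.3% and 44.6%. Thinning left out 3 OHCs and 2 cIHCs.

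Per kilobase of annotated exon, the pooled levels of the leading members changed order between the groups. The length used is the union of all annotated exons of a gene, which for Gpx2 is its whole annotated span of 3222 bases. It need not be the length of the transcript present, so the order of genes within a group is rough. In OHCs Gpx2 was followed by Prdx5 at 592.3, Gpx4 at 460.7 and Txn1 at 347.7 CPM per kilobase. In cIHCs it was followed by Txn1 at 410.7, Gpx4 at 405.5, Prdx2 at 200.2 and Prdx5 at 154.7 CPM per kilobase. No replicate spread stands behind these positions.

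Around the members, a list of 59 further genes of the same chemistry was examined, of which 44 reached 10 CPM. Of these, 15 were at least 2-fold higher in cIHCs and 4 lower, 34.1% and 9.09%, beside 26.3% and 14.3% of all genes. The median was 0.43 beside 0.25. It lay below that of all genes with medians over cells, at 0.023 beside 0.731, and among cells with Xist reads, at 0.207 beside 0.41. NADPH is the reducing power behind both glutathione and thioredoxin. Of 8 genes listed for its supply, among them Tkt and Taldo1 of the branch of the pentose phosphate pathway that does not itself make NADPH, 3 (Idh1, Tkt and Nnt) were at least 2-fold higher, 37.5% beside 26.3% of all genes, and none was 2-fold lower. Nnt, the mitochondrial transhydrogenase, had 10.8 and 50.2 CPM and a ratio of 2.22, with 1 OHC holding 68.3% of the OHC counts. Mt1, a metallothionein, had 1.23 CPM in OHCs, 98.0% of it in 1 cell, and 54.7 CPM in cIHCs, in 32 of 67 cells, a ratio of 5.47. Fth1, the ferritin heavy chain that stores iron, had 1762 and 5754 CPM, a ratio of 1.71, and was named after its value was seen. Sesn3, a sestrin, had 8.25 and 57.4 CPM and a ratio of 2.80. Below 50 CPM and named after their values were seen, Chac1 and Msra had ratios of 8.52 and 7.63, above that of Mt1, and Msrb2 had 3.41. Chac1 and Msra reached 18.2 and 13.9 CPM in cIHCs and rest on 12 and 17 OHC counts. The 4 lower genes, named here after their values were seen, were Ggct, Sesn1, Nxn and Cul3, with ratios of -2.79, -1.49, -1.44 and -1.17; Cul3 encodes the ubiquitin ligase scaffold that works with KEAP1. Mafg and Mafk, small MAF partners of NRF2 likewise named after the fact, had ratios of 1.99 and 1.46. Of the other NRF2 partners on the list, Rbx1 and Sqstm1 lay within 2-fold, with ratios of 0.215 and 0.929. Bach1 and Maff were below 10 CPM in both groups.

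Xist and Y-linked reads split the cells unevenly, with 4 OHCs and 55 cIHCs in the first set and 24 and 12 in the second, so the sex of the mice differed between the groups as well. Among cells with Y-linked reads, 12 of 34 members were at least 2-fold higher and 6 lower, 35.3% and 17.6%, beside 28.5% and 20.5% of all genes in the same cells. Among cells with Xist reads 12 and 7 of 34 did so, 35.3% and 20.6%, beside 40.7% and 21.4% of all genes. Prdx5 had a ratio of -2.07 in the cells with Y-linked reads and -1.95 in those with Xist reads, Gpx2 of -1.428 and -1.001, and Gstz1 of 2.44 and 2.50. Cat had 11.99 and 8.68, but all OHCs together held 1 Cat read, and a sum of 0 was set to 3 counts. The distance between the 2 Cat values therefore does not measure a difference between the sets.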

How the data were processed

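Single cells were picked by hand, amplified with Smart-Seq HT and made into libraries by tagmentation, per the labels' protocols. Titles and design text call the cells OHCs and cIHCs, whereas the protocol text speaks of endogenous IHCs and iOHCs; the titles were followed, and the OHC and IHC markers matched them. The authors deposited whole-number counts per gene for 99 cells in 1 table. HISAT2 2.2.1, StringTie 2.2.1, featureCounts 2.0.1 and mm10 are named in the submitters' processing notes; annotation, strand setting and read filters are not given in the sources used here, so overlapping and near-identical genes may share reads; 1 such overlap is not reported here. The kit carries no molecular identifiers, so counts are reads. Further OHCs of an earlier study are not analysed here.

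Counts were summed per group and divided by the group's total (pooled CPM), with exact Poisson intervals; ratios have exact conditional binomial 95% intervals, and shares of cells exact Clopper-Pearson intervals (SciPy 1.17.1). A group sum of 0 was set to 3 counts over the group, and genes with 3 or fewer counts in both groups got no ratio. Genes that reached 10 CPM in either group were compared, and at least 2-fold was the threshold. The members and lists were chosen with earlier results of these data known. Every member at 10 CPM or more is named; full values are given for 18 core members and for others with at least 50 CPM in 1 group and a 2-fold difference, and genes of the wider list are named at 50 CPM and a log2 ratio of 2 or beyond. Other settings were means or medians over cells, leaving out each gene's highest cell, TMM (edgeR 4.0.16) or median-of-ratios scaling of the 2 pooled libraries, totals without mitochondrial or the 10 most abundant genes, cells with Y-linked or Xist reads only, and filters on cells or genes; leaving out cells with reads of supporting cells, glia or red blood cells was added after seeing the data. The labels give no animals, so no replicate test was made. No 2 cells held identical counts. On simulated counts for 9172 genes, all 200 genes changed by 2-fold or more had the right direction. Cells were simulated independently, with the same dispersion for every gene and without spread between animals, so the simulation does not bear on that spread. Only the direction of changed genes was scored. Unchanged genes passing 2-fold were not counted, so it does not bear on the 2-fold calls either. Loci and exon lengths are from GENCODE M21, which matched 56 of 56 members and 96.4% of the table's symbols.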

Additional observations from a re-analysis of the deposited data

How the results depend on the processing

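Of the 33 members at 10 CPM or more, 23 kept the sign of their ratio under every setting with a value, as did 13 of the 14 that differed 2-fold, of which 9 stayed at or past 2-fold. The exception was Srxn1, at -1.21 as reported and 0.60 among cells with Y-linked reads; the cause was not tested. The median over members, 0.24 as reported, was 0.217 with means over cells, 0.699 with medians over cells (20 members with a value), 0.388 without each gene's highest cell, 0.048 with TMM, 0.039 with median-of-ratios scaling, 0.196 without mitochondrial genes, 0.162 without the most abundant genes, 0.401 among cells with Y-linked reads, 0.692 among cells with Xist reads, 0.179 without the cells with fewest genes, 0.283 without cells holding reads of other cell types and 0.503 over every member with more than 3 counts. The median over the wider list, 0.429 as reported, was 0.513, 0.023 and 0.636 under the first 3 of these settings, 0.237 with TMM, 0.227 with median-of-ratios scaling, 0.186 once the most abundant genes were out of the totals, 0.59 in cells with Y-linked reads and 0.207 in those with Xist reads, 0.332 without cells holding reads of other cell types and 0.543 over every gene with more than 3 counts. The median of all genes, 0.249 as reported, moved as well. It was 0.731 with medians over cells, 0.496 without each gene's highest cell, 0.172 among cells with Y-linked reads and 0.41 among cells with Xist reads. TMM and median-of-ratios scaling shifted it by -0.218 and -0.23. The wider list lay below all genes with medians over cells and among cells with Xist reads, and above them under the other settings with both values. With medians over cells 2 of 20 members were at least 2-fold lower, and with every member above 3 counts 18 of 48 were at least 2-fold higher. The second setting lets in members with almost no OHC reads, such as Gpx7 with 1 count and Gstp3 with 0. The shares of all genes under these settings were not worked out, so the counts say nothing particular about the members. No paired analysis was possible because the labels name no animal or batch that cells of both groups share. With 1 sample per group, the spread between animals limits every ratio and is not known.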

Other observations

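Correlations between members over the cells of a group went both ways. Among the 19 members with reads in at least 90% of cIHCs, the 171 pairs had a median Spearman correlation of 0.012 over 67 cells, from -0.413 for Prdx3 and Txn1 to 0.547 for Gpx2 and Txn1. Among the 9 such members in OHCs, the 36 pairs had a median of 0.061 over 32 cells, with the highest value, 0.451, for Gpx1 and Gpx2. Txn1 and Mgst3 had correlations with Tbx2 of -0.467 and -0.471 over the cIHCs, and Prdx5 of -0.295. Each pair of values shares its cell's library and total.

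Of the pseudogene symbols left out, Gpx2-ps1 stood at 3.53 CPM (OHCs) and 10.7 CPM (cIHCs), and Gpx4-ps2 at 16.8 and 9.82 CPM. How the counting divided reads between such copies and their parent genes is not given in the sources used here.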
